A study of Rattus norvegicus with 6 samples.

Results

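Ins1, Ins2 and Iapp, which encode the insulins and the amylin of the rat, were the 3 genes described, of 24579 gene models in the deposited assembly. They were chosen by gene name, without regard to case, and they hold 4 of the 60887 assembled transcripts. All 3 passed the filter on low reads, which left 15983 genes. The libraries come from rat pancreatic beta cells purified by fluorescence-activated cell sorting (FACS) in 3 batches. Cells of each batch received an siRNA at 30 nM, either a control sequence or one that targets Nova1. Transfection lasted 16 h and a culture of 48 h followed, which gives 3 control and 3 knockdown libraries of poly(A) RNA. The study concerns Nova1, an RNA-binding protein that regulates alternative splicing. Genotype, strain and animal age are not given in the labels used here, and the knockdown is a transient lowering of Nova1 RNA in cultured cells that had all been transfected.

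Insulin is made as preproinsulin, which enters the endoplasmic reticulum, folds, is cut by the prohormone convertases and is stored in dense granules. Rats and mice carry a pair of insulin genes. Ins2 is the ancestral gene, and Ins1 is a copy of it made through an RNA intermediate. Amylin is cut from its own precursor by the same enzymes, packed into the same granules and released with insulin. It slows gastric emptying and promotes satiety, and the rat peptide, unlike the human one, does not readily form amyloid.

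Libraries held 95394043 to 292432076 reads assigned to transcripts, and the control was the deeper library of each batch. Nova1, the targeted gene, was at 20.6, 21.5 and 17.4 CPM (counts scaled to library size) in control batches 1, 2 and 3 and at 7.76, 10.2 and 9.43 CPM in the knockdown libraries, so the groups did not overlap. Its log2 fold change was -1.12 (SE 0.11, limma, adjusted p = 0.038), and it did not pass without batch 1 (adjusted p = 0.12, limma) or without batch 2 (0.15). On log2(RPKM + 0.1) it was -0.73 (limma, adjusted p = 0.33). The sorted cells carried beta cell markers at 2709 to 3774 summed RPKM (reads per kilobase of transcript at a common library size) in controls and 2522 to 3621 in knockdown libraries. One of the 10 markers, G6pc2, was near 0 with a highest value of 0.066 RPKM. The 10 markers of other islet endocrine cells summed to 5605 to 14585 RPKM in controls and 7455 to 15859 in knockdown libraries, mostly from the glucagon gene Gcg, and the ghrelin gene Ghrl was listed at 0 in all 6. Batch 2 held the highest sum of that list in both groups. It also held the lowest sum of the beta cell markers in both groups, at 2709 RPKM in the control and 2522 RPKM in the knockdown library. Not every beta cell marker followed that sum, and Gad1 and Abcc8 were highest in batch 2 in both groups.

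The proximal promoters of the 3 genes are shown because insulin gene transcription is read from short elements in this stretch and the members' RNA levels are compared below. Each line holds the 250 bases before the RefSeq transcription start, 5′ to 3′ on the gene's strand, in the build GRCr8, which differs from the build of the deposited assembly. Capitals mark TAAT or its reverse complement ATTA, the core bound by homeodomain factors such as Pdx1, and CANNTG, the E-box core bound by factors such as Neurod1. The windows are chr1:261185869-261186118 on the + strand for Ins1, chr1:207273806-207274055 on the - strand for Ins2 and chr4:176967847-176968096 on the + strand for Iapp.
Ins1: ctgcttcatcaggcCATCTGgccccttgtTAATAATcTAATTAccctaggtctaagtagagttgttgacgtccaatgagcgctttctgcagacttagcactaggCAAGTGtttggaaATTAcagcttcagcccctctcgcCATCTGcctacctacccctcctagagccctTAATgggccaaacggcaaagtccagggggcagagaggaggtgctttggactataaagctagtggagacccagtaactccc
Ins2: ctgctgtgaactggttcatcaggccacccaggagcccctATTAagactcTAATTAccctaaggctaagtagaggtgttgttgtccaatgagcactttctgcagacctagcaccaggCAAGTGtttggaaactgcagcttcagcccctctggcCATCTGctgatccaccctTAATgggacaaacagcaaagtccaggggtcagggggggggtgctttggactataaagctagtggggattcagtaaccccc
Iapp: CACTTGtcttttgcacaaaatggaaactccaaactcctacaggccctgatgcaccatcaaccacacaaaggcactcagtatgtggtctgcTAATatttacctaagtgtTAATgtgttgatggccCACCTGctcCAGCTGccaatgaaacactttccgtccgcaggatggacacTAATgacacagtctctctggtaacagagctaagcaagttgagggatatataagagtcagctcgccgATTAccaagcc

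The insulin promoters were near copies of one another. An alignment matched 205 of 238 aligned bases (86.1%), and the longest run without a difference was 26 bases, starting at position -42 in both. The exact letters TATAAA lay at -30 to -25 in both insulin promoters and were not found in the Iapp window. Other forms of a TATA box were not searched, and the Iapp window holds tatataag near its end. The TAAT core, searched on both strands, and counted also where matches overlap, was found 6 times for Ins1, 4 times for Ins2 and 4 times for Iapp. Over 33469 RefSeq promoters, cut to the same 250 bases, 57.0% held at least 1 TAAT. At least as many as Ins1 were held by 3.34%, and at least as many as Ins2 or Iapp by 10.8%. CANNTG was found 3 times for Ins1, 2 times for Ins2 and 3 times for Iapp. Of all promoters, 65.5% held at least 1, 30.8% at least 2 and 11.5% at least 3. CCAAT occurred 1 time in each of the 3 windows, against 34.0% of promoters with a match. TGACG, the core of the cyclic AMP response element, occurred in the Ins1 window and in 18.2% of promoters. The search for these 5 motifs was a match of letters and gave no measure of binding.

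The assembly held 1 transcript of Ins1, 1 of Ins2 and 2 of Iapp. In Rnor_5.0 coordinates, Ins1 (XLOC_001783) lay on chromosome 1 at 280213615 to 280214178 on the + strand, with exons of 43 and 402 nt around 1 intron of 119 nt. Ins2 (XLOC_003207) lay on chromosome 1 at 222751790 to 222752853 on the - strand, with exons of 43, 201 and 202 nt and introns of 119 and 499 nt. The first exon and the first intron thus had the same lengths in both insulin genes, and the larger intron of Ins2 was absent from Ins1. Iapp (XLOC_022263) lay on chromosome 4 at 240724059 to 240729993 on the + strand. Its reference transcript had exons of 75, 95 and 714 nt.

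The other Iapp transcript was assembled as a new splice combination of 982 nt, against 884 nt for the reference form. It began 129 nt upstream of the reference start, and its last exon began 31 nt further downstream. The forms shared 853 bases, so 129 bases belonged to the upstream-start form alone and 31 to the reference form alone. No form of the 3 genes had an exon spanning an intron of another form. No exon of another named gene overlapped any of the 11 member exons. Intron-retaining and read-through forms were therefore 0 of the 4 transcripts, which describes the assembly and not the reads.

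**Figure D1:**
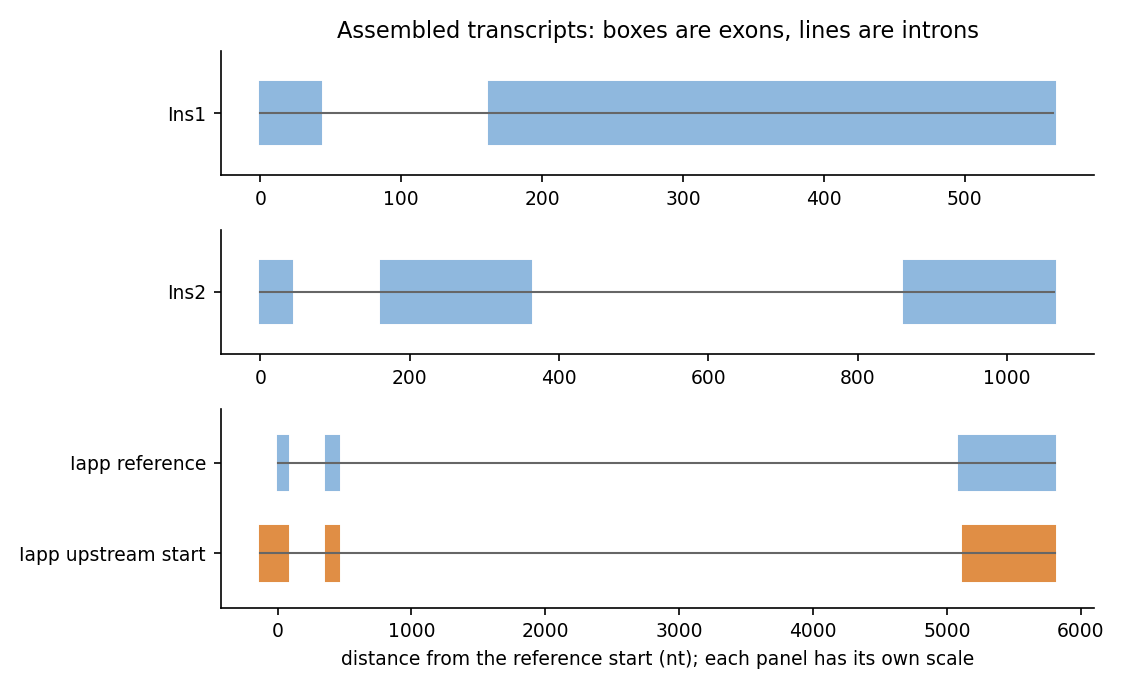
Exons (boxes) and introns (lines) of the 4 assembled transcripts, with distance from the reference start in nt on the x axis and a separate scale in each panel. The upstream-start Iapp form has a first exon of 204 nt in place of 75 nt and a last exon of 683 nt in place of 714 nt.

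The nearest named neighbours stood far below the members. Downstream of Ins2 on the same strand, 21360 nt away, lies Igf2, which encodes insulin-like growth factor 2. Igf2 was at 10.96, 8.39 and 7.98 RPKM in control batches 1, 2 and 3 and at 12.8, 10.3 and 10.5 RPKM in the knockdown libraries. Each knockdown value was above its own control, with a log2 fold change of 0.25 that did not pass (limma, adjusted p = 0.080). On the other side of Ins2, the tyrosine hydroxylase gene Th averaged 0.107 RPKM in controls and 0.076 RPKM in knockdown libraries. Slco1a2, an organic anion transporter gene 4113 nt from Iapp on the opposite strand, averaged 0.470 and 0.449 RPKM, and Pyroxd1, 49523 nt from Iapp on its other side, averaged 4.24 and 4.50 RPKM. The nearest named genes to Ins1 were Xpnpep1, 907386 nt away at 16.2 and 15.2 RPKM, and Ccdc147, 1385588 nt away.

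Ins1 was the most abundant gene per length of transcript in all 6 libraries, and Ins2 was the next. Ins1 was at 299976, 190653 and 312886 RPKM in control batches 1, 2 and 3 and at 310172, 139929 and 299186 RPKM in the knockdown libraries. Ins2 was at 148153, 94567 and 156788 RPKM in the controls and at 164990, 69757 and 152813 RPKM in the knockdown libraries. For both insulin genes the batch 2 libraries were the lowest of their group, the knockdown of batch 2 was the lowest of all, and control and knockdown ranges overlapped. Ins1 and Ins2 together made up 48.6%, 38.8% and 49.3% of the summed RPKM of all genes in the controls and 50.6%, 32.7% and 49.1% in the knockdown libraries.

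Iapp was at 8048, 8221 and 8310 RPKM in control batches 1, 2 and 3 and at 7309, 8415 and 7369 RPKM in the knockdown libraries. Its values lay within a narrow band in which batch 2 was not low. The knockdown library of batch 2 was the highest of all 6, so the groups overlapped on this scale. By RPKM, Iapp ranked 8, 7 and 8 in the controls and 8, 5 and 9 in the knockdown libraries. Among the 10 genes with the highest mean RPKM were also Gcg (9064), Iapp (7945) and the mitochondrial MTCO3 (7743) and COX1 (7540). Ins1 and Ins2 did not meet in any library, whereas Gcg ranged from 4728 to 14249 RPKM, across the whole range of Iapp. RNA was measured in bulk, so fewer cells of a type and less RNA per cell cannot be told apart.

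**Figure D2:**
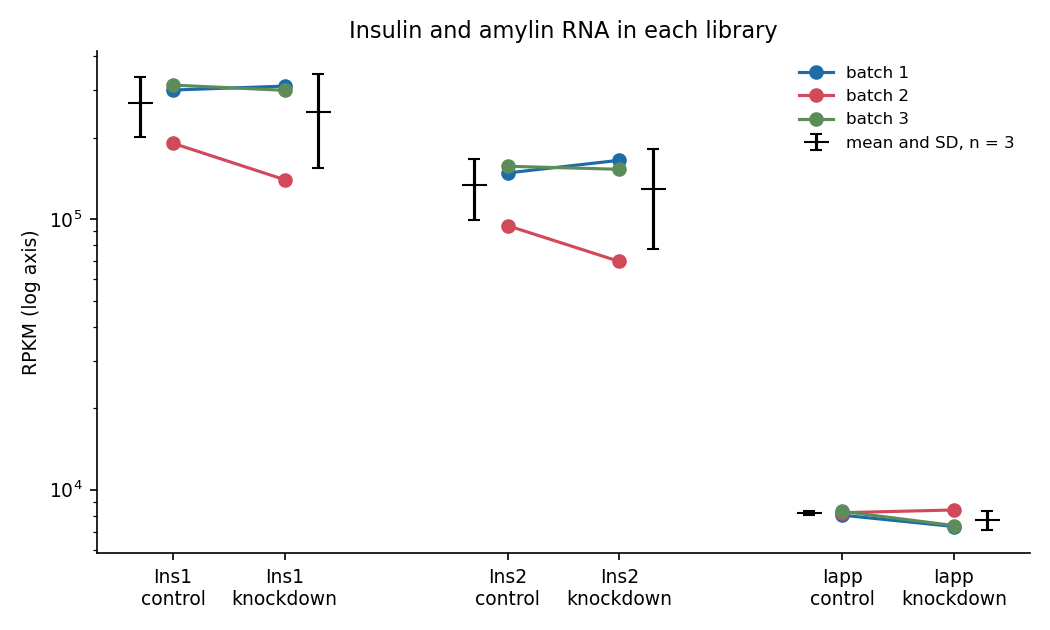
RPKM (log axis) of Ins1, Ins2 and Iapp in each of the 6 libraries, with lines joining the control and knockdown library of a batch and black marks for the mean and SD (n = 3). Batch 2 lies low for Ins1 and Ins2 in both groups, while the Iapp values stay between 7309 and 8415 RPKM.

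Measured as a share of assigned reads, the 3 genes together took 20.7%, 14.0% and 22.4% of the controls and 22.0%, 10.6% and 21.4% of the knockdown libraries. Ins1 took 6.56% to 14.4% of reads, Ins2 3.28% to 7.43% and Iapp 0.668% to 0.802%. The summed share was 19.0% ± 4.46 (SD, n = 3) in controls and 18.0% ± 6.39 in knockdown libraries. Knockdown minus control was 1.31, -3.34 and -1.05 percentage points in batches 1, 2 and 3, so batch 1 moved the opposite way to the others. The mean difference of -1.03 points was smaller than the spread between batches (exact sign-flip permutation test over 3 batches, two-sided, p = 0.75, where 0.25 is the smallest p possible). Without batch 2 the mean difference was 0.131 points.

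None of the 3 members passed the test between knockdown and control, against 1.71% of the 15983 genes tested (274 genes, of which 82 or 0.513% were higher and 192 or 1.2% lower). Unadjusted limma p-values were 0.12 for Ins1, 0.25 for Ins2 and 0.067 for Iapp. On the scaled CPM, Ins1 was at 141818, 83082 and 153317 in control batches 1, 2 and 3 and at 145588, 57729 and 140605 in the knockdown libraries. The log2 ratio of knockdown to control was 0.04, -0.53 and -0.12 in the 3 batches, so batch 2 held most of the difference. The fitted log2 fold change was -0.21 (SE 0.12, 95% confidence interval -0.50 to 0.08, limma, adjusted p = 0.32), which corresponds to a difference of -13.7% with an interval from -29.5% to 5.71%. Without batch 2 it was -0.04.

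Ins2 was at 70199, 41303 and 77000 CPM in the controls and at 77617, 28844 and 71977 CPM in the knockdown libraries. Its log2 ratios of 0.14, -0.52 and -0.10 had the same pattern over batches as those of Ins1. The fitted log2 fold change was -0.17 (SE 0.13, 95% confidence interval -0.50 to 0.16, limma, adjusted p = 0.46), and without batch 2 its sign turned, to 0.02.

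Iapp was at 7594, 7283 and 8100 CPM in the controls and at 6975, 7052 and 7012 CPM in the knockdown libraries. On this scale the knockdown library was the lower one in each of the 3 batches and the groups did not overlap. The share of all genes that separate in this way is not given here. The separation is therefore not read as particular to Iapp. The exact sign-flip permutation test over the 3 paired batches gave p = 0.25 and an exact permutation test of 3 against 3 libraries gave p = 0.1, each two-sided and the smallest possible. The fitted log2 fold change was -0.12 (SE 0.05, 95% confidence interval -0.26 to 0.01, limma, adjusted p = 0.24), which did not pass. It corresponds to a difference of -8.29% with an interval from -16.6% to 0.867%. The sign held in the fit under each of the 4 scalings tried and on log2(RPKM + 1), but in batch 2 the RPKM values ran the other way.

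The ratio between the insulin genes hardly varied while their levels did. Ins1 RPKM divided by Ins2 RPKM was 2.02, 2.02 and 2.00 in control batches 1, 2 and 3 and 1.88, 2.01 and 1.96 in the knockdown libraries. Both insulin genes were thus lower in batch 2 in nearly the same proportion. The ratio was 2.01 ± 0.015 (SD, n = 3) in controls and 1.95 ± 0.064 in knockdown libraries, and it was lower with knockdown in 3 of 3 batches. The mean log2 difference was -0.05 (exact sign-flip permutation test, two-sided, p = 0.25, the smallest possible with 3 batches). How reads that match both genes were divided is not given in the sources used here, and the ratio rests on that division.

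Iapp did not follow the insulin genes across batches. Its RPKM was 1.80%, 2.88% and 1.77% of the summed insulin RPKM in the controls and 1.54%, 4.01% and 1.63% in the knockdown libraries. Both batch 2 libraries were above the other 4, and the groups overlapped. The log2 difference between knockdown and control was -0.22, 0.48 and -0.12 in batches 1, 2 and 3, with a mean of 0.05 (exact sign-flip permutation test, two-sided, p = 1) and a mean of -0.17 without batch 2.

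**Figure D3:**
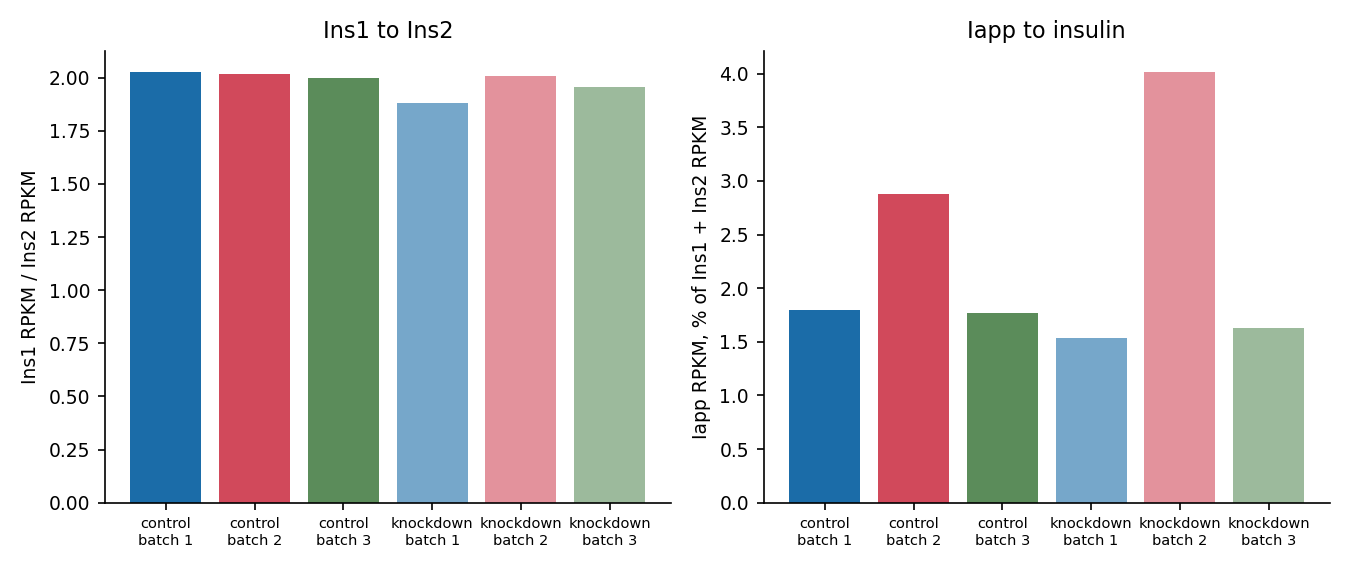
Bars for each library of Ins1 RPKM over Ins2 RPKM (left) and of Iapp RPKM as a percentage of Ins1 + Ins2 RPKM (right). The left bars lie between 1.88 and 2.02 and the right bars between 1.54% and 4.01%, with both batch 2 libraries highest on the right.

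Iapp differed between libraries in the assigned split of its forms more than in its total. The upstream-start form held 4.28%, 21.1% and 1.18% of Iapp RPKM in control batches 1, 2 and 3 and 21.2%, 20.3% and 17.3% in the knockdown libraries. Only the controls of batches 1 and 3 were low, the control of batch 2 was among the high libraries, and the groups overlapped. In RPKM the upstream-start form was at 345, 1732 and 97.9 in the controls and at 1546, 1709 and 1277 in the knockdown libraries. The reference form was at 7703, 6488 and 8212 RPKM in the controls and at 5763, 6707 and 6092 RPKM in the knockdown libraries. The forms divide a total that varied little, so a higher value of either form goes with a lower value of the other.

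The share of the upstream-start form was 8.85% ± 10.7 (SD, n = 3) in controls and 19.6% ± 2.01 in knockdown libraries (exact sign-flip permutation test, two-sided, p = 0.5). In the fit over all transcripts, the log2 fold change of the upstream-start form was 1.63 above that of the reference form. This difference did not pass (limma diffSplice, adjusted p = 0.66). In that fit 0.302% of the 31429 transcripts passed (95 transcripts). The difference between the forms was 1.22 without batch 1, 3.00 without batch 2 and 1.18 without batch 3 (limma diffSplice, adjusted p = 0.85, 0.32 and 0.77). The 2 libraries with a low share were also the 2 deepest, at 292432076 and 199930608 assigned reads, and the part of depth in the split was not tested. The split rests on 19909 to 217022 reads assigned to the upstream-start form per library, and on 129 and 31 bases that tell the forms apart.

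**Figure D4:**
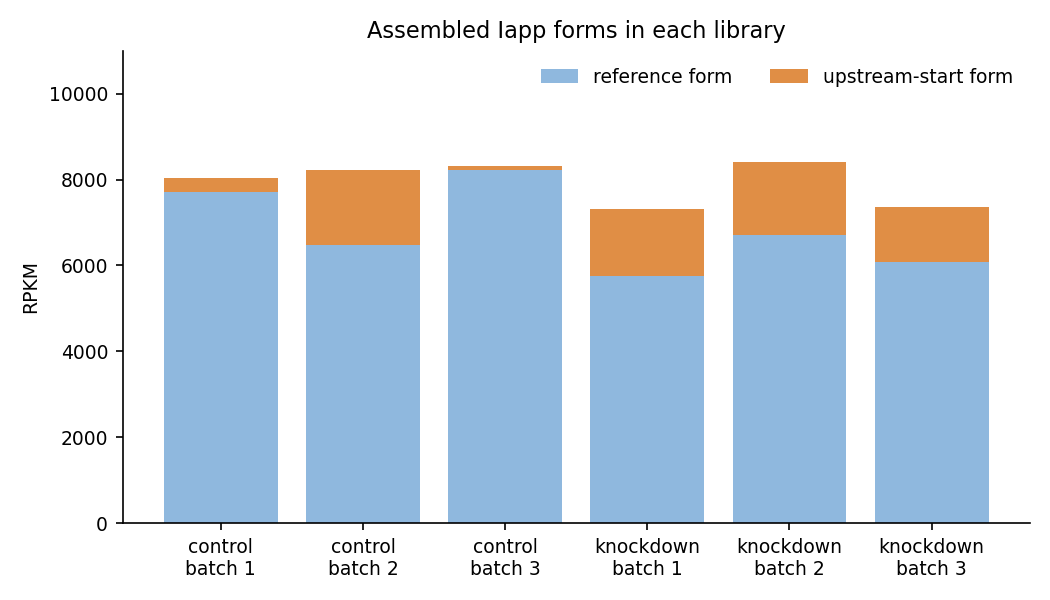
Stacked bars of the RPKM of the reference form (blue) and the upstream-start form (orange) of Iapp in each library. The controls of batches 1 and 3 hold 4.28% and 1.18% in the upstream-start form, and the other 4 libraries 17.3% to 21.2%.

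In batch 2 the insulin genes were low, and so was the median of genes of similar transcript length. Relative to the mean of batches 1 and 3, log2 CPM in batch 2 differed by -0.83 in controls and -1.31 in knockdown libraries for Ins1, and -0.83 and -1.37 for Ins2. For Iapp the same differences were -0.11 and 0.01, against medians of -0.23 and -0.35 over the 770 genes of 800 to 1000 nt, so Iapp stood above its length class. Ins1 and Ins2 transcripts were 445 and 446 nt long, Iapp averaged 898 nt, and the median gene tested had 2277 nt. Over the 478 genes of 400 to 500 nt, the median difference of batch 2 from the others was -0.35 in controls and -0.77 in knockdown libraries. Over the 2212 genes longer than 5000 nt it was 0.40 and 0.38. The insulin genes were thus low in batch 2 together with their length class, and by more than its median.

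The median knockdown to control ratio was lower in short than in long genes in batches 2 and 3. In batch 1 the medians of the length classes lay between -0.03 and 0.04 without such an order. Genes of 400 to 500 nt had median log2 ratios of 0.02, -0.44 and -0.12 in batches 1, 2 and 3, close to the values of Ins1 and Ins2 in the same batches. The class of Iapp, 800 to 1000 nt, had medians of -0.03, -0.22 and -0.14. Over all genes tested the medians were 0.02, -0.01 and 0.00. With a correction for transcript length, chosen after seeing the data, the log2 fold changes were -0.05 (SE 0.05) for Ins1, -0.002 (SE 0.06) for Ins2 and -0.02 (SE 0.07) for Iapp. The limma adjusted p-values were then 0.64, 0.98 and 0.88. Total RNA was isolated with columns that favour molecules longer than 200 nt and fragments of one size were cut from a gel, per the labels' protocols, and the part of either step in the pattern was not tested.

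**Figure D5:**
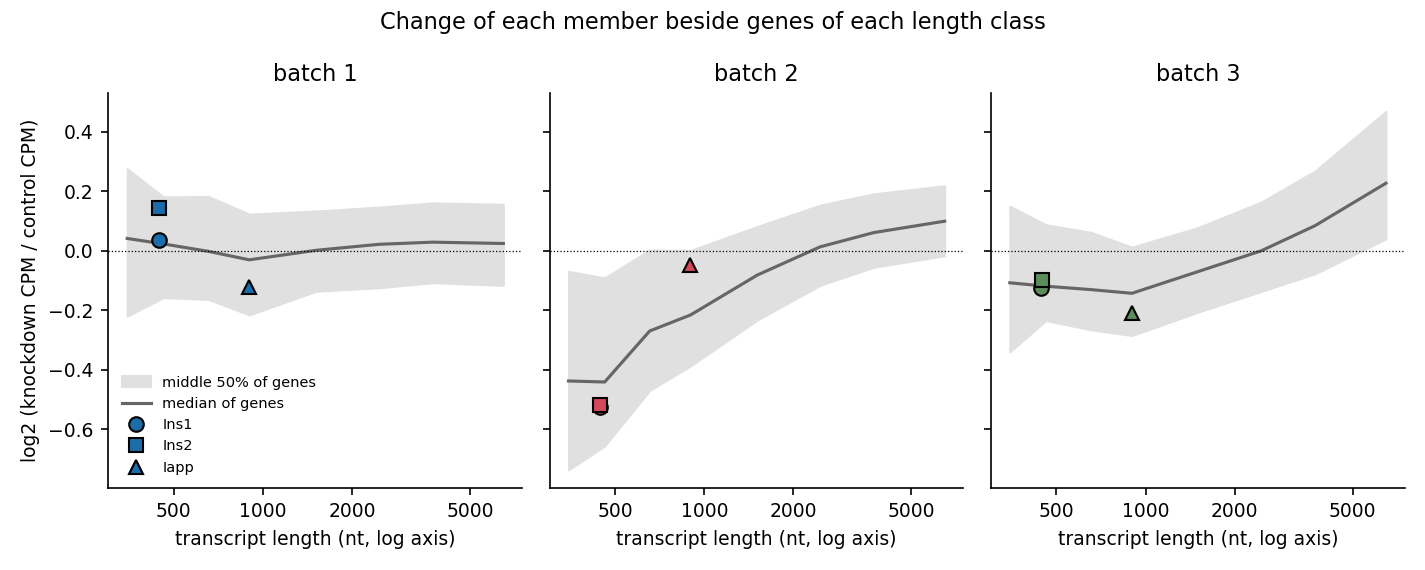
Log2 ratio of knockdown to control CPM (y axis) against transcript length in nt (x axis, log scale) in each batch, with the median (line) and middle 50% (grey) of the genes in each length class. In batch 2 short genes lie low, at -0.44 for 400 to 500 nt, and Ins1 (circle) and Ins2 (square) lie near that median at -0.53 and -0.52, while Iapp (triangle) lies at -0.05.

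The genes whose levels ran closest to each member over the 6 libraries were taken from 5061 genes with a symbol and a mean of at least 10 RPKM, by the Pearson r of log2 CPM. These correlations describe 6 libraries that share batches and depth. Among the 3 closest to Ins1 were Ddt, which encodes D-dopachrome tautomerase, and Bbln, both with r = 0.999. Their transcripts were 777 and 557 nt long, again short. Closest to Ins2 were Shfm1, Ostf1 and OST4, at 753, 1054 and 560 nt. Ins1 and Ins2 had r = 0.998 with each other, while Iapp had r = 0.38 with Ins1 and 0.33 with Ins2. Closest to Iapp were the amidase gene Nit2 (r = 0.987), the sodium and proton exchanger gene Slc9a8 (0.980) and Smim14 (0.960), with longer transcripts of 2202, 2947 and 1552 nt.

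Among transcription factors that act on the insulin genes or in their lineage, Myt1, a zinc finger factor, passed the test. Of 16 factors tested, 1 passed and was higher, 0 passed as lower, and the median log2 fold change was 0.15 against 0.0035 over all genes. Over all genes tested, 0.513% passed as higher and 1.2% as lower. Myt1 had a log2 fold change of 0.49 (SE 0.06, limma, adjusted p = 0.042), which was 0.32 and did not pass with the length correction (limma, adjusted p = 0.064). Mafa, a basic leucine zipper activator of insulin transcription, was at 138, 204 and 444 RPKM in control batches 1, 2 and 3 and at 271, 66.5 and 438 RPKM in the knockdown libraries. It was the most variable of the factors named here, with log2 ratios of 0.96, -1.70 and -0.08, and its knockdown library of batch 2 was the lowest, as for the insulin genes. Its fitted log2 fold change was -0.25 (limma, adjusted p = 0.77). Pdx1, the homeodomain activator of insulin, ranged over 103 to 127 RPKM with a log2 fold change of 0.01. Neurod1, an E-box factor, ranged over 102 to 137 RPKM and Pax6 over 54.9 to 99.3 RPKM, with log2 fold changes of 0.25 and 0.21 that did not pass (limma, adjusted p = 0.079 and 0.088). Nkx6-1 ranged over 72.5 to 91.7 RPKM.

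Of 30 genes for entry into the endoplasmic reticulum and folding, 0 passed as higher and 2 as lower, against 0.513% and 1.2% of all genes, with a median log2 fold change of -0.07. The 2 were Srp14, a subunit of the signal recognition particle, at -0.61 (SE 0.05, limma, adjusted p = 0.036), and Spcs1, a subunit of the signal peptidase complex, at -0.40 (SE 0.05, limma, adjusted p = 0.046). None of 8 prohormone processing genes passed, with a median of 0.02. By median over the 6 libraries, the convertases Pcsk1 and Pcsk2 were at 377 and 1164 RPKM, the carboxypeptidase Cpe at 2569 RPKM and the amidating enzyme Pam, which amylin requires, at 1291 RPKM. None of 9 granule genes passed, with a median of -0.09. Among them, Scg2 was at 1120 RPKM, Chga at 578 RPKM, Chgb at 130 RPKM and the zinc transporter Slc30a8 at 579 RPKM by median, and Ptprn had a log2 fold change of -0.22 (limma, adjusted p = 0.088). With the length correction 2 of the 9 passed, against 622 of all 15983 genes. Ptprn was 1 of these 2, at -0.26 (limma, adjusted p = 0.044). None of these list members passed without batch 1 or without batch 2, with limma adjusted p-values of 0.14 to 0.17, and of Myt1, Srp14 and Spcs1 only Srp14 passed without batch 3.

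Markers of other islet endocrine cells included 0 of 9 tested genes that passed, against 1.71% of all genes. Gcg was at 4728, 12641 and 7084 RPKM in control batches 1, 2 and 3 and at 6466, 14249 and 9214 RPKM in the knockdown libraries. Gcg was higher with knockdown in each batch and was highest in batch 2, where the insulin genes were lowest. Its log2 fold change was 0.29 (limma, adjusted p = 0.12). With the length correction it was 0.38 and passed (limma, adjusted p = 0.036), the 1 gene of this list to do so. That setting called 622 of all 15983 genes. The part of Gcg in the insulin values was not tested. By median the somatostatin gene Sst was at 295 RPKM and the pancreatic polypeptide gene Ppy at 618 RPKM.

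Of 17 acinar markers, 16 had a negative log2 fold change, against 7871 of all 15983 genes, and 1 passed as lower, against 1.2% of all genes. It was Ctrb1 (chymotrypsinogen) at -0.40 (limma, adjusted p = 0.046). Their sum was 206 to 587 RPKM in controls and 154 to 448 in knockdown libraries, and trypsinogen Prss1 ranged over 8.01 to 86.3 RPKM. None of 4 duct markers tested passed, against 1.71% of all genes. Their list was at 116 to 155 summed RPKM in controls and 134 to 201 in knockdown libraries. Most of this sum was Krt7, at 107 to 183 RPKM. Krt19 ranged over 6.51 to 19.1 RPKM, while Sox9, Cftr and Muc1 reached at most 0.052, 0.050 and 0.178 RPKM. With the length correction 1 duct marker passed, against 622 of all 15983 genes. Endothelial markers stayed at or below 2.48 summed RPKM, with 0 of 4 passing, against 1.71% of all genes. Among 7 stellate markers, 1 passed as higher, against 0.513% of all genes. It was Col3a1, a fibrillar collagen, with a log2 fold change of 1.26. The summed level of that list was 6.68 to 14.9 RPKM in controls and 16.7 to 22.2 in knockdown libraries. Of 9 immune markers, 1 passed as higher and 1 as lower, against 0.513% and 1.2% of all genes. They were the lysozyme gene Lyz2 (1.43) and the complement gene C1qa (-0.47). C1qa was the only member of the list with a negative log2 fold change, and its partners C1qb and C1qc were at 1.52 and 0.62. The other 8 members were positive, against 8112 of all 15983 genes, with a list median of 0.96. Of the 9 markers, 7 averaged under 1 RPKM. The immune list was at 11.96 to 14.9 summed RPKM in controls and 11.5 to 23.2 in knockdown libraries. C1qa alone ranged over 7.04 to 10.6 RPKM and Lyz2 over 1.32 to 12.9 RPKM. These 4 calls had the same sign but did not pass without batch 1 or without batch 2 (limma adjusted p = 0.12 to 0.18). The part of these cells in the member values was not tested.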

How the data were processed

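The submitters' processing notes name TopHat as a tool and Rnor_5.0 as the build. The authors deposited, for every transcript of an assembly, estimated read counts (not whole numbers), lengths and RPKM values as text attributes. How reads were divided among transcripts is not given in the sources used here. Ins1 and Ins2 are close copies, so their split is uncertain. Large values were stored at single precision, a step of at most 4 reads for the insulin genes.

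Estimated reads were summed per gene model, a locus and a gene name. Scaling used the trimmed mean of M values. A filter asked for 10 reads at median depth, in 3 libraries or more, and left 15983 genes. CPM are reads scaled to these library sizes. All genes were fitted with voom in limma 3.58.1 under R 4.3.3, with batch as a block, with Benjamini-Hochberg adjustment and a threshold of 0.05. Transcripts were tested with limma diffSplice. Both were first tested on simulated data. These held no trend with transcript length, and those for diffSplice held no batch effect and no reads shared between transcripts. The tests therefore do not cover these features. Single values were compared with exact permutation tests. Promoters were aligned with Biopython 1.88, and their sequences come from RefSeq (GRCr8).

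Titles give the group and the batch of each library. Batches pair the libraries, and deviations from the group mean correlated within batches 1, 2 and 3 at 0.38, 0.72 and 0.55. Nothing in the labels says that batches came from separate animals, and the p-values cover only the spread over batches, which may be technical. The members, the gene lists and the tests were chosen with earlier results of these data known. Of 150 listed symbols, 146 matched.

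Named genes are the members, the nearest named gene on each side, the 3 genes closest in pattern to each member, the 10 most abundant genes, called list members and a set of reference genes. Not every gene under this rule is reported here. The alternatives were no block, leaving out each batch, other scalings, other filters and log2(RPKM + 1) or log2(RPKM + 0.1). A correction for transcript length was chosen after seeing the data.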

Additional observations from a re-analysis of the deposited data

How the results depend on the processing

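With 2 residual degrees of freedom per gene, counts of called genes moved strongly with the settings, and limma called none of the 3 members under any alternative run. Genes called higher and lower (82 and 192) were 0 and 0 without the replicate block (521 genes at an unadjusted p under 0.05), between 0 and 24 and between 0 and 39 when 1 batch was left out, 47 and 44 with library totals alone, 47 and 127 without the filter, 33 and 86 with a filter 5 times stricter, and 0 and 0 on log2(RPKM + 1) or log2(RPKM + 0.1), with 3193 and 3111 genes at an unadjusted p under 0.05. Leaving out batch 2 called 0 genes, with 2803 at an unadjusted p under 0.05. With the members left out of the totals, 115 genes were called higher and 126 lower. With the length correction, 177 and 445 genes were called. Myt1, Srp14, Spcs1, Ctrb1, Col3a1, Lyz2, C1qa and Nova1 had the same sign but did not pass without the block or on either log2 RPKM scale, where Nova1 was -0.54 on log2(RPKM + 1) and -0.73 on log2(RPKM + 0.1). Spcs1 and C1qa also did not pass with library totals alone, with the members left out of the totals, without the filter or with the stricter filter. Ctrb1 did not pass with library totals alone, with the members left out of the totals, with the stricter filter or with the length correction (limma adjusted p = 0.050 to 0.077 over these). The causes were not tested.

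When 1 batch was left out, the log2 fold change of Ins1 ranged from -0.33 to -0.04, that of Ins2 from -0.31 to 0.024 and that of Iapp from -0.16 to -0.08. The summed share of reads ranged from -2.19 to 0.131 percentage points. The log2 ratio of Iapp to the insulin genes ranged from -0.17 to 0.18, and with the main transcript of each gene alone it was -0.13. Mafa ranged from -0.85 to 0.43 and Pdx1 from -0.021 to 0.078. Library totals alone moved the median of all genes to 0.06 on the log2 scale and left Ins1, Ins2 and Iapp at -0.15, -0.11 and -0.07. Without the replicate block the members' log2 fold changes were -0.21, -0.15 and -0.12, and none passed. No alternative could be given for the transcript shares of Ins1 and Ins2, which have 1 transcript each, or for intron-retaining and read-through forms, of which none was assembled.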

Other observations

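Calcr, the calcitonin receptor that forms amylin receptors with the RAMP proteins, had a highest value of 0.076 RPKM over the 6 libraries. Of its partners, Ramp1 reached 0.019 RPKM and Ramp3 0.124 RPKM, while Ramp2 ranged over 17.6 to 22.2 RPKM. The insulin receptor Insr ranged over 2.08 to 3.995 RPKM with a log2 fold change of 0.34 (limma, adjusted p = 0.10), and Igf1r over 5.98 to 19.96 RPKM. The insulin-degrading enzyme Ide, which also cuts amylin, ranged over 11.8 to 14.1 RPKM. Calcb, a relative of Iapp in the calcitonin gene family, ranged over 11.97 to 16.7 RPKM. None of the 14 tested genes for hormone relatives, receptors and degradation passed, against 1.71% of all genes. Their median log2 fold change was 0.14.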
